A study of Caenorhabditis elegans with 3 samples.

Results

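The metallothionein genes mtl-1 and mtl-2 and the cadmium response genes cdr-1, cdr-2, cdr-4 and cdr-6 of the nematode Caenorhabditis elegans were described by the levels of their transcripts at 3 times. The 6 genes were chosen by symbol, as all probe sets that the array's annotation table assigns to 1 of them, which gave 8 probe sets of 22625 and 6 genes of 17118. The worms were young adult hermaphrodites of the wild-type strain N2, raised on agar plates with Escherichia coli OP50 as food and synchronized by age. The 3 groups were worms at 0 h with no treatment, worms kept 4 h at 1 mg/L of multiwall carbon nanotubes, and worms kept 24 h at the same dose. Multiwall carbon nanotubes are hollow fibres of nested carbon sheets, and the exposure took place in K-medium, a salt solution used in toxicity tests with worms. Each group was measured on 1 Affymetrix array of total RNA from whole worms, with no replicate. No unexposed worms of 4 h or 24 h were analysed here, so the nanotubes, the time in K-medium and the age of the worms cannot be told apart.

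Metallothioneins are small proteins rich in cysteine that hold metal ions such as zinc, copper and cadmium. In C. elegans the transcripts of mtl-1 and mtl-2 are known to increase in the intestine when worms take up cadmium or zinc, and mtl-1 is also a known target of DAF-16, the transcription factor that insulin signalling restrains. The cdr genes encode proteins related to glutathione S-transferases and were named for cdr-1, which cadmium induces in the intestine. Whole worms were used, so fewer cells of a type and less RNA per cell cannot be told apart.

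Values are normalized intensities on a linear scale, each with n = 1. Ratios are on the log2 scale after 32 was added to both intensities, which shrinks the ratios of dim genes. Where "higher" or "lower" stands without a value, it means at least 2-fold on that scale. No test across replicates exists, and no p-value is given. As a measure of technical error, the root mean square difference between the ratios of a pair of probe sets of 1 gene was taken over 1830 genes and divided by the square root of 2. This technical SD was 0.24 for 4 h against 0 h, 0.47 for 24 h against 0 h and 0.29 for 24 h against 4 h. The pairs were not centred on 0: the brighter probe set had the lower ratio in 76.1%, 78.6% and 72.6% of these genes, by a mean of -0.17, -0.35 and -0.18, so the technical SD holds this offset as well as random error, and each gene is represented by its brightest probe set. Differences between animals, cultures or hybridisations are not part of it. A background floor of 67.8 was set by the brightest control probe set for transcripts that worms lack, and the 8 probe sets of the 6 genes lay above it at 0 h, 4 h and 24 h.

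The metallothionein genes had their highest levels at 4 h. The gene mtl-1 (locus CELE_K11G9.6) had an intensity of 177.0 at 0 h, 3165 at 4 h and 2108 at 24 h. The low array was that of 0 h, and both later arrays lay far above it. At 4 h the intensity was 17.9 times that at 0 h, with a log2 ratio of 3.94, and no other of the 8634 genes that passed the filter had a higher ratio. At 24 h the intensity was 11.9 times that at 0 h, with a log2 ratio of 3.36, or 7.18 technical SDs, and mtl-1 held rank 13 from the highest. Between the exposed arrays the 24 h intensity was 66.6% of that at 4 h, a log2 ratio of -0.58 or 2.00 technical SDs. The order of levels was therefore 4 h, 24 h and 0 h, with the smaller step between 4 h and 24 h.

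The gene mtl-2 (locus CELE_T08G5.10) was measured by 3 probe sets, each of which the manufacturer marks as able to hybridise with other transcripts. Its brightest probe set had an intensity of 3419 at 0 h, 6866 at 4 h and 2079 at 24 h. Another had 3196 at 0 h, 6700.5 at 4 h and 1744 at 24 h. The dimmest had 3101 at 0 h, 5071 at 4 h and 2259.5 at 24 h. On the 3 probe sets alike the level was highest at 4 h and lowest at 24 h, so that mtl-2 went below its 0 h level where mtl-1 did not. Against 0 h, the log2 ratios of the 3 probe sets at 4 h ran from 0.70 to 1.06, and the brightest had 1.00, just short of 2-fold on the scale used although the intensity itself was 2.01 times that at 0 h. At 24 h against 0 h they ran from -0.86 to -0.45, with -0.71 or 1.52 technical SDs for the brightest, so the step below 0 h was not clear of technical error. At 24 h against 4 h they ran from -1.92 to -1.16, and the brightest had -1.71 or 5.91 technical SDs, with 30.3% of the 4 h intensity left. The 3 probe sets share the RNA of 1 array at each time and are not replicates.

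**Figure D1:**
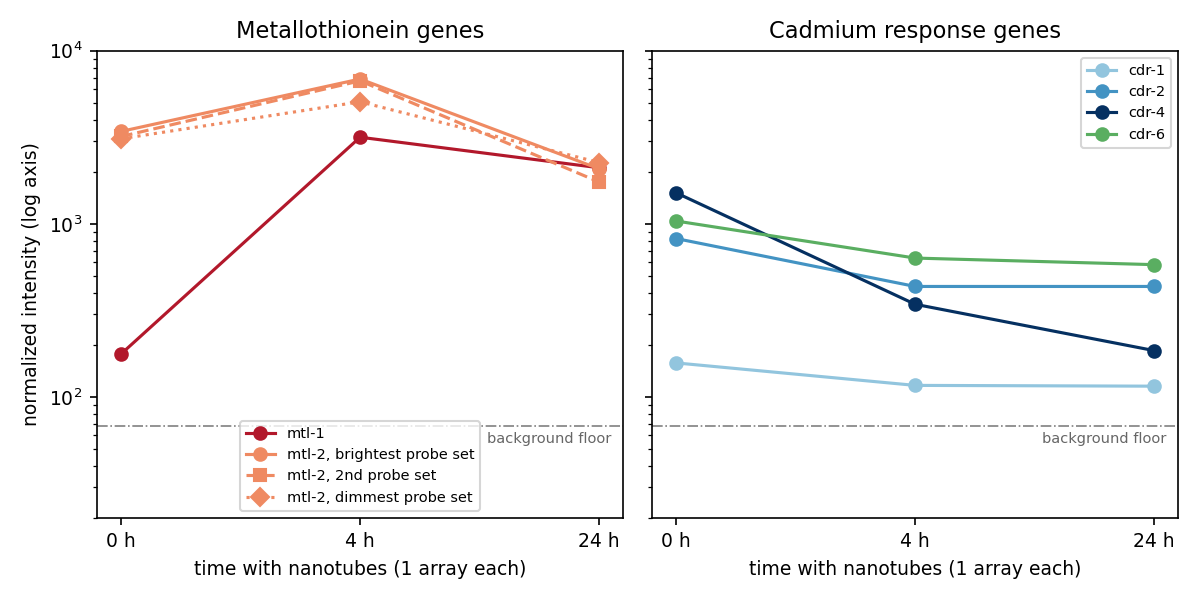
Normalized intensity, on a log axis, of the 8 probe sets of the mtl genes (left) and the cdr genes (right) at 0 h, 4 h and 24 h, with 1 array per time. Points are single values, lines join the values of a probe set, and the dash-dotted line is the background floor of 67.8. The mtl-1 line stands at 3165 at 4 h, against 177.0 at 0 h, the 3 mtl-2 lines peak at 4 h, and the cdr lines are highest at 0 h.

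The cdr genes had their highest levels at 0 h. The gene cdr-4 (locus CELE_K01D12.11) had an intensity of 1510.4 at 0 h, 342.8 at 4 h and 185.1 at 24 h. Each later array lay below the one before it. At 4 h the intensity was 4.41-fold lower than at 0 h, with a log2 ratio of -2.04 or 8.40 technical SDs, rank 29 from the lowest of 8634 genes. At 24 h it was 8.16-fold lower than at 0 h, with a log2 ratio of -2.83 or 6.05 technical SDs, rank 66 from the lowest. Between 24 h and 4 h the log2 ratio was -0.79, or 2.73 technical SDs. The 1 probe set of cdr-4 can hybridise with other transcripts, and the share of its signal that comes from them cannot be told from these values.

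The other cdr genes differed from 0 h by less than 2-fold. The gene cdr-2 (locus CELE_C54D10.1) had an intensity of 821.9 at 0 h, and of exactly the same 434.5 at 4 h and 24 h. Its log2 ratio to 0 h was -0.87 at both times, which is 3.59 technical SDs at 4 h and 1.87 at 24 h. Exact ties of this kind are a property of the deposited values, with 22.2% of all probe sets identical at 24 h and 4 h, so the ratio of 0.00 between those arrays is less precise than it looks. The gene cdr-6 (locus CELE_K01D12.12) had 1038 at 0 h, 633.9 at 4 h and 580.8 at 24 h. Its log2 ratio was -0.68 at 4 h, or 2.82 technical SDs, and -0.80 at 24 h, or 1.72 technical SDs, with -0.12 between 24 h and 4 h. For cdr-2 and cdr-6 the lower level at 4 h was thus beyond 2 technical SDs. That at 24 h was within 2 technical SDs of 0 h and not clear of technical error. The step from 4 h to 24 h was within 1 technical SD.

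The gene cdr-1 (locus CELE_F35E8.11), the gene after which the family was named, had 157.1 at 0 h, 116.5 at 4 h and 115.3 at 24 h. Its signal was close to background, at 2.32 times the floor at 0 h, 1.72 times at 4 h and 1.70 times at 24 h. Its log2 ratio was -0.35 at 4 h and -0.36 at 24 h, which is 1.43 technical SDs at 4 h and 0.771 at 24 h. For cdr-1 the difference was thus not clear of technical error. Among the other cdr genes, cdr-3 was below the floor, at 16.1, 17.3 and 17.3 at 0 h, 4 h and 24 h, and cdr-5 and cdr-7 were not analysed here.

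Among the 6 genes, 1 was higher at 4 h than at 0 h (mtl-1) and 1 was lower (cdr-4). Of the 8634 genes that passed the filter, 1.71% were higher and 3.25% lower in that comparison. At 24 h against 0 h, mtl-1 was again the 1 gene higher and cdr-4 the 1 gene lower, where 5.32% of all genes were higher and 7.96% lower. At 24 h against 4 h, 0 of the 6 genes were higher and 1 was lower (mtl-2), beside 2.28% and 3.22% of all genes. All probe sets of the 6 genes passed the filter on dim probe sets, and that of cdr-1 did so by the least. The median ratio of the 4 cdr genes was -0.78 at 4 h and -0.84 at 24 h against 0 h, and -0.07 at 24 h against 4 h, where the median of all genes was 0.00 in each comparison. The comparisons with 0 h share the 0 h array, so the values at 4 h and 24 h are not independent of each other.

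**Figure D2:**
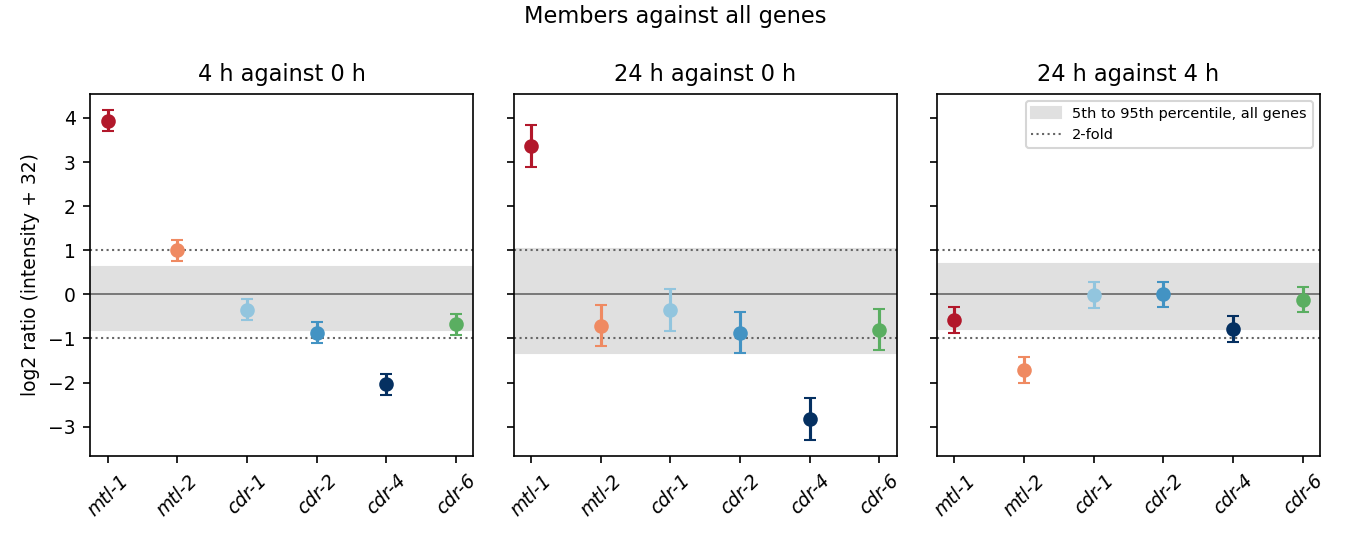
Log2 ratio (intensity + 32) of the 6 genes in each comparison, with 1 array per time. Points are the brightest probe set of a gene, bars are 1 technical SD to either side, the grey band spans the 5th to 95th percentile of 8634 genes, and dotted lines mark 2-fold. Outside the band lie mtl-1 (3.94), mtl-2 (1.00), cdr-2 (-0.87) and cdr-4 (-2.04) at 4 h against 0 h, mtl-1 (3.36) and cdr-4 (-2.83) at 24 h against 0 h, and mtl-2 (-1.71) and cdr-4 (-0.79) at 24 h against 4 h.

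The scaling of the arrays bears on the smaller of these ratios. The 0 h, 4 h and 24 h arrays had medians of 101.8, 100.2 and 102.8, but 9 probe sets for bacterial hybridisation controls had mean log2 ratios of -0.45 at 4 h and -0.66 at 24 h against 0 h. With the arrays scaled on these controls, the median of all genes was 0.43 at 4 h and 0.61 at 24 h against 0 h and 0.19 at 24 h against 4 h, and 81.7%, 85.6% and 60.4% of calls were higher, against 34.5%, 40.1% and 41.5% as deposited. Under that scaling mtl-1 had ratios of 4.38 at 4 h and 4.01 at 24 h against 0 h, and cdr-4 had -1.62 and -2.25. The gene mtl-2 had 1.45 at 4 h, which is higher than 2-fold, and -0.05 at 24 h. The gene cdr-1 turned above 0, at 0.02 and 0.18, and cdr-2 (-0.45 and -0.25) and cdr-6 (-0.25 and -0.17) came nearer to 0. The median of the cdr genes was -0.35 at 4 h and -0.21 at 24 h, and at 24 h against 4 h it turned to 0.13. In the 5' to 3' signal ratios of 4 control transcripts, which depend on RNA integrity and labelling, 4 of 4 were higher at 4 h and 4 of 4 at 24 h than at 0 h, by a median of 0.32 and 0.56 on the log2 scale. Their part in the results on the 6 genes was not tested.

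**Figure D3:**
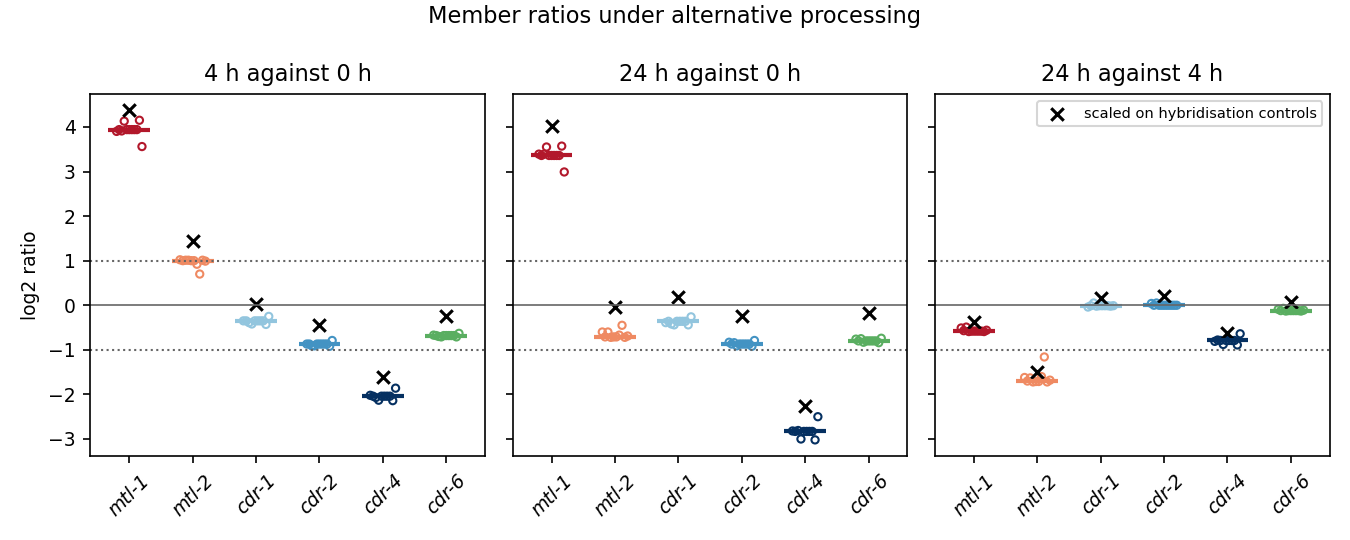
Log2 ratio of the 6 genes in each comparison under the alternative ways of processing. Horizontal bars are the values reported, open circles are alternatives other than scaling on hybridisation controls, crosses are that scaling, and dotted lines mark 2-fold. The crosses are above the bars in the 3 panels. In the 2 panels against 0 h mtl-1 and cdr-4 stay beyond 2-fold throughout, while mtl-2 at 4 h lies on both sides of the line (0.70 to 1.45).

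The 6 genes lie on chromosome V, and the current gene table of the WBcel235 assembly places several near each other. In its order of protein-coding genes cdr-4 is followed by hrg-2, cdr-7, cdr-6, cdr-2 and cdr-3, while cdr-1, mtl-1 and mtl-2 lie apart from this group and from each other. Within the group the ratios at 24 h against 0 h were -2.83 for cdr-4, -0.80 for cdr-6 and -0.87 for cdr-2, and cdr-3 was below the floor. The 3 protein-coding genes on either side of each of the 6, chosen after the values of the members were seen, made up 26 other genes. Of these, 18 were on the array and 6 passed the filter. At 4 h against 0 h 1 of the 6 neighbours was lower, K01D12.9, which lies near cdr-4, and 0 were higher. The transcript of K01D12.9 had an intensity of 204.8 at 0 h, 61.9 at 4 h and 278.3 at 24 h, so it was at least 2.37-fold lower at 4 h, and its 24 h level was above that at 0 h. At 24 h against 0 h, 0 of the 6 neighbours were higher and 0 lower, and at 24 h against 4 h K01D12.9 was the 1 higher, by at least 3.11-fold. Near mtl-1, era-1 passed the filter and was at 1287 at 0 h and 4 h and 1218 at 24 h. The gene egl-46, also near mtl-1, did not pass the filter, with 34.4 at 0 h, 95.8 at 4 h and 186.4 at 24 h, at least 2.19-fold higher at 24 h than at 0 h.

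Genes with the pattern most like that of mtl-1 were found by the distance between pairs of log2 ratios (4 h and 24 h against 0 h), over 3 arrays. The nearest were scl-2 (distance 0.23), cyp-37B1 (0.94) and F43C11.7 (1.43). The nearest of them, scl-2, had an intensity of 541.5 at 0 h, 8144 at 4 h and 6737 at 24 h. The gene F43C11.7 was at 233.1, 1481 and 2895 in the same order of times, so unlike mtl-1 it was highest at 24 h. For cdr-4 the nearest genes were cest-33 (distance 0.07), nspb-10 (0.15) and dhs-23 (0.20). Of these, cest-33 was at 1118 at 0 h, 243.5 at 4 h and 137.4 at 24 h. The gene dhs-23 fell below the floor at 24 h, with 37.1 there and 529.5 at 0 h, a level lower by at least 5.62-fold. The probe sets of cest-33 and nspb-10, like that of cdr-4, can hybridise with other transcripts.

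The other genes of metal handling, taken from lists of zinc, copper, manganese and iron genes and of cadmium and arsenic tolerance genes and from the 3 cdr genes outside the 6, mostly stayed within 2-fold on the scale with 32 added. Of 53 listed genes 36 passed the filter. At 4 h against 0 h, 2 were higher and 3 lower, at 24 h against 0 h 3 were higher and 1 lower, and at 24 h against 4 h 2 were higher and 1 lower. Their medians were 0.00, 0.03 and 0.00, where the median of all genes was 0.00. Of all genes, 1.71% were higher and 3.25% lower at 4 h against 0 h, 5.32% and 7.96% at 24 h against 0 h, and 2.28% and 3.22% at 24 h against 4 h.

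Zinc genes include the transporters that move zinc out of the cytoplasm or into it. Of 20 listed, 15 passed the filter, and 0 were higher or lower in the comparisons made, with medians of 0.00 at 4 h and 0.06 at 24 h against 0 h and 0.00 at 24 h against 4 h. The largest ratios at 4 h were those of zipt-2.1, a zinc transporter gene, at 462.3 against 216.3 at 0 h (0.99 with 32 added), and cdf-2, which encodes a transporter that stores zinc in gut granules, at 254.6 against 114.0 at 0 h (0.97 with 32 added). On the intensities themselves both were more than 2-fold higher, as was the brightest probe set of mtl-2, and with 32 added all fell just short of it. With a pseudocount of 1 in place of 32, 208 of 8631 genes were higher at 4 h against 0 h. The level of cdf-2 was 175.7 at 24 h, so like mtl-1 and mtl-2 it was highest at 4 h. The gene hizr-1, for a nuclear receptor that senses high zinc, was below the floor at 31.4 on the 3 arrays. With scaling on hybridisation controls 2 of 15 zinc genes were higher at 4 h and 3 at 24 h against 0 h. Of the 8631 genes that passed the filter under that scaling, 545 were higher at 4 h and 1896 at 24 h.

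Of 10 copper genes 7 passed the filter, and 1 was higher at both times, F27C1.2, with an intensity of 812.0 at 0 h, 2184 at 4 h and 3072 at 24 h (log2 ratios to 0 h 1.39 and 1.88). Its probe set can hybridise with other transcripts. The copper medians were -0.20 at 4 h and -0.39 at 24 h against 0 h, and -0.31 at 24 h against 4 h. With scaling on hybridisation controls the medians against 0 h turned to 0.23 and 0.27, where those of all genes were 0.43 and 0.61. The copper chaperone gene cuc-1 had ratios of -0.43 and -0.79 to 0 h.

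In the cadmium and arsenic tolerance list, 10 of 12 genes passed the filter. The phytochelatin synthase gene pcs-1, whose enzyme makes cadmium-binding peptides, was tied at 208.3 on the 3 arrays. The transporter gene hmt-1, needed for tolerance of cadmium, had ratios of 0.23 at 4 h and 0.50 at 24 h against 0 h. At 4 h 3 of the 10 genes were lower, gst-4 for a glutathione S-transferase (-2.86) and the heat shock genes hsp-70, at least 5.07-fold, and hsp-16.2, at least 4.99-fold. At 24 h against 0 h gst-4 was lower (-3.16), and gcs-1, for glutathione synthesis, was higher, at 308.7 against 127.7 at 0 h (1.09). The 2 heat shock genes were below the floor on the 4 h array only. In the order 0 h, 4 h and 24 h, hsp-70 was at 473.7, 47.7 and 265.3 and hsp-16.2 at 465.8, 66.3 and 414.1. At 24 h against 4 h these 2 genes were higher, by at least 2.98-fold and 4.47-fold. The medians of this list were -0.02 at 4 h and 0.15 at 24 h against 0 h and 0.33 at 24 h against 4 h. The first turned to 0.39 with scaling on hybridisation controls, where the median of all genes was 0.43. Under that scaling 3 of the 10 genes were higher at 24 h against 0 h, where 1896 of 8631 genes were higher.

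Among the manganese and iron genes 4 of 8 passed the filter. The ferritin gene ftn-1, for iron storage, was at 518.7 at 0 h, 4899.7 at 4 h and 1300.0 at 24 h, so it too was highest at 4 h. Its ratio to 0 h was 3.16 at 4 h and 1.27 at 24 h. The other ferritin gene, ftn-2, was at 5846, 8642 and 5131 at 0 h, 4 h and 24 h, within 2-fold (0.56 and -0.19 to 0 h). Like mtl-2, ftn-2 was highest at 4 h and lowest at 24 h. Its step below 0 h was smaller than the technical SD of 0.47 and thus not clear of technical error. The medians of the list were 0.34 and -0.04 against 0 h and -0.63 at 24 h against 4 h. With scaling on hybridisation controls -0.04 turned to 0.59, where the median of all genes was 0.61. Under that scaling 2 of the 4 genes were higher at 4 h against 0 h, where 545 of 8631 genes were higher.

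**Figure D4:**
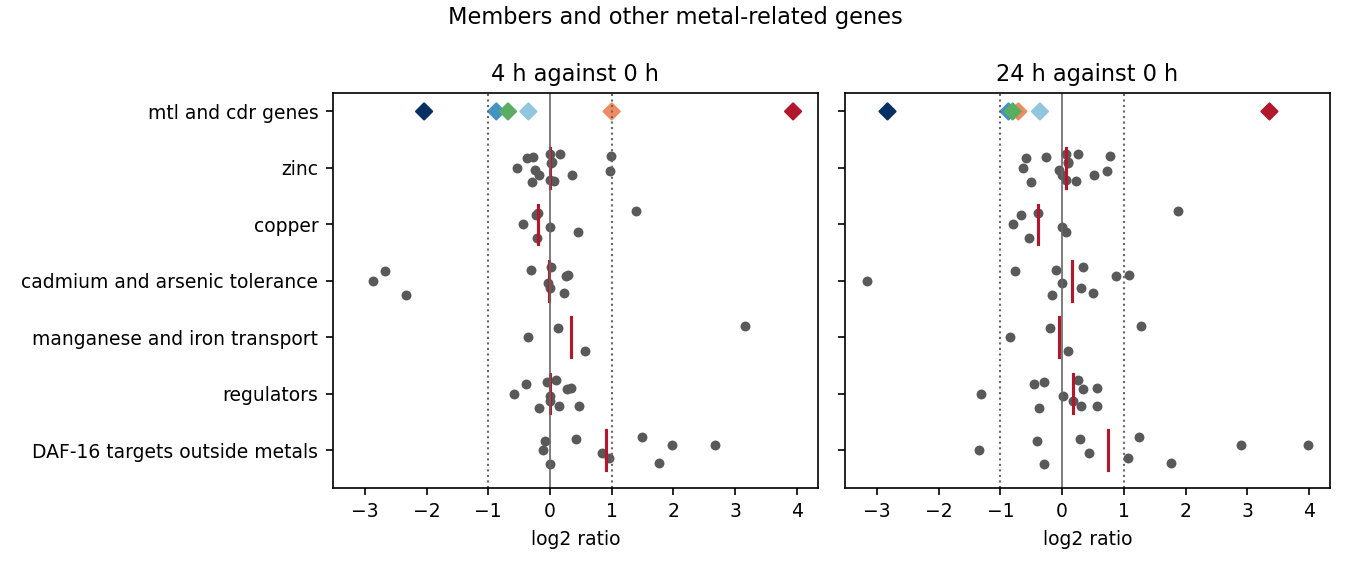
Log2 ratio to 0 h at 4 h (left) and 24 h (right) of the mtl and cdr genes (coloured diamonds) and of the genes of 6 lists that passed the filter (grey points, spread vertically for visibility), with the median of each list as a red bar and 2-fold as dotted lines. The diamonds at either end are mtl-1 (3.94 and 3.36) and cdr-4 (-2.04 and -2.83). The zinc genes lie within the 2-fold lines of this scale at both times, with zipt-2.1 (0.99) and cdf-2 (0.97) next to the upper line at 4 h.

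Transcripts of regulators known to act on these genes or on stress and insulin signalling were measured on the same arrays. The activity of the regulator proteins was not measured. Of 13 listed, 11 passed the filter. The GATA factor gene elt-2, whose protein is needed for metallothionein transcription in the intestine, was at 168.8 at 0 h, 189.7 at 4 h and 171.3 at 24 h. The gene daf-16 was at 1459.8, 1408 and 1118 in the same order (log2 ratios to 0 h -0.05 and -0.38). At 4 h against 0 h 0 regulators were higher or lower, and at 24 h 1 was lower, skn-1, for a regulator of detoxification genes (-1.32). At 24 h against 4 h 0 were higher or lower. The medians were 0.00, 0.18 and -0.13, and the last turned to 0.06 with scaling on hybridisation controls, where the median of all genes was 0.19. Under that scaling 2 regulators were higher and 0 lower at 24 h against 0 h, where 1896 of 8631 genes were higher and 318 lower.

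Other genes known to follow DAF-16 were set beside mtl-1. This list was chosen with earlier results of these data known, so its counts are not independent of those results. Of 15 listed, 10 passed the filter. Their medians were 0.90 at 4 h and 0.74 at 24 h against 0 h and -0.25 at 24 h against 4 h, where the median of all genes was 0.00. At 4 h 4 were higher, nnt-1 for a mitochondrial transhydrogenase (2.68), the linker histone gene hil-1 (1.97), dod-3 (1.76) and hsp-12.6, for a small heat shock protein (1.49). At 24 h 5 were higher, the same 4 and hsp-12.3 (1.25), and the desaturase gene fat-5 was lower (-1.35). Of all genes, 1.71% were higher and 3.25% lower at 4 h, and 5.32% and 7.96% at 24 h against 0 h. The gene nnt-1 was at 146.8 (0 h), 1113 (4 h) and 578.5 (24 h), and dod-3 was at 1813, 6215 and 3803, both with the order of levels of mtl-1. By contrast hsp-12.6 (76.4, 273.5 and 1675), hil-1 (214.2, 935.9 and 1804) and hsp-12.3 (580.6, 1072 and 1427) were highest at 24 h. With scaling on hybridisation controls 6 genes of this list were higher and 0 lower at 4 h and likewise at 24 h against 0 h. Under that scaling 545 of 8631 genes were higher and 122 lower at 4 h, and 1896 and 318 at 24 h against 0 h. The superoxide dismutase gene sod-3, another known target, did not pass the filter, at 98.6 at 0 h, 61.2 at 4 h and 73.6 at 24 h.

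Marker genes of the worm's tissues were measured on the same arrays. The intestine is the tissue in which the metallothionein genes and cdr-1 are known to be induced. Of its 15 markers 14 were on the array, and they summed to an intensity of 34314 at 0 h, 30161 at 4 h and 29065 at 24 h. The brightest of them, asp-1, was at 9702, 11578 and 12957 in the same order, so it rose while the sum fell. At 4 h against 0 h 1 marker was higher, gem-4 (1.01), and 3 were lower, act-5 (-1.96), pept-1 (-2.22) and pho-1, by at least 5.73-fold. At 24 h against 0 h 1 was higher, gem-4 (1.17), and 4 were lower, act-5 (-1.69), pept-1 (-1.07), lbp-6 (-1.50) and pho-1 (-2.03). At 24 h against 4 h 1 was higher, pept-1 (1.15). The median ratios of the 14 markers were 0.05, -0.09 and 0.08, and the intestinal phosphatase gene pho-1 was below the floor at 4 h. Summed intensities in the order 0 h, 4 h and 24 h were 53171, 48961 and 45124 for 10 body wall muscle markers, 36924, 36915 and 31383 for 10 germline markers and 5989, 6918 and 10602 for 10 neuron markers. For 9 sperm markers they were 12986, 7996 and 1580.0, and spe-9 and fer-1 were below the floor at each time, as was the neuron marker sng-1 at 0 h and 4 h. Of the markers that passed the filter, 0 of 10 muscle markers were higher or lower at 24 h against 0 h and 1 of 10 germline markers was lower. In the same comparison 2 of 9 neuron markers were higher and 7 of 7 sperm markers lower, where 5.32% of all genes were higher and 7.96% lower. With scaling on hybridisation controls 1896 of 8631 genes were higher and 318 lower in the same comparison. Under it 3 of 14 intestine markers were higher and 2 lower, with a median of 0.54 where that of all genes was 0.61. Of the other markers, 8 of 9 neuron markers were higher, 1 germline marker was higher and 6 of 7 sperm markers were lower. The part of these levels in the levels of the mtl and cdr genes was not tested.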

How the data were processed

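The authors deposited a table of normalized, linear intensities with a column for each array. The submitters' processing notes name RMA, MAS5 and Affymetrix Expression Console 1.1 without their role or order. Per the labels' protocols, RNA came from a column kit and 300 ng was labelled from the 3' end.

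Probe sets were named through the array's annotation table, with symbols updated by gene ID (20701 of 20766 probe sets of 1 gene) to a gene table of the WBcel235 assembly. The coordinates in that table were used only to order the genes on a chromosome. Intensities had 32 added before log2. Probe sets with a mean log2 value of at least 7.09 (the median, an intensity of 103.9) passed the filter, and the brightest of them stood for a gene. Groups were the exposure times. The 6 genes and the lists were chosen with earlier results of these data known. Named list genes were those past 2-fold, at most 6 per list and comparison, besides others named for their role or the size of their ratio after the values were seen. The computation was tested on simulated data. Python 3.11.15, numpy 2.4.6, pandas 2.3.3, statsmodels 0.14.6 and matplotlib 3.10.9 were used. The number of arrays limits the precision, and the depth of a value is its signal over background.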

Additional observations from a re-analysis of the deposited data

Results flagged for a closer look

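The log2 ratio of mtl-2 to 0 h was 1.00 at 4 h and -0.71 at 24 h, so the exposed arrays lay on opposite sides of the 0 h array, by 4.11 and 1.52 technical SDs. The ratio at 24 h was within 2 technical SDs of 0 and thus not clear of technical error. With 1 array per time the difference was not tested, and both ratios share the 0 h array. With scaling on hybridisation controls the ratio at 24 h was -0.05, within 1 technical SD of 0, and that at 4 h was 1.45.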

How the results depend on the processing

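The counts of the 6 genes past the threshold were recomputed under 14 alternatives in 3 comparisons and 2 directions, and 72 of 84 counts were as reported. At 4 h against 0 h, 2 genes in place of 1 were higher at 1.5-fold, under quantile normalization, with the loess trend (span 0.3) removed, with scaling on hybridisation controls, with the 1st percentile subtracted and 16 added, and with a pseudocount of 1. The gene added was mtl-2 each time. The threshold of 1.5-fold gave 3 lower genes at 4 h and 4 at 24 h against 0 h, and 2 at 24 h against 4 h. Leaving out probe sets marked for cross-hybridisation gave 0 lower in each comparison, because cdr-4 and mtl-2 then had no probe set and 4 of the 6 genes were left. Of 207 single ratios of the 6 genes, 192 moved by less than 1 technical SD, 15 moved by more, and 0 of those past 2-fold changed sign. The ratio of mtl-1 ran from 3.56 to 4.38 at 4 h and from 2.99 to 4.01 at 24 h against 0 h, and that of cdr-4 from -2.14 to -1.62 and from -3.02 to -2.25. A filter at the 75th percentile left out cdr-1. Over all genes, 148 were higher and 281 lower at 4 h against 0 h, 459 and 687 at 24 h against 0 h, and 197 and 278 at 24 h against 4 h. In the same order of comparisons, the 3-fold threshold left 45 and 86, 134 and 319, and 52 and 122, and the 1.5-fold threshold gave 531 and 722, 1244 and 1495, and 591 and 798. A filter at the 75th percentile, with 4532 genes left, gave 71 and 112, 224 and 316, and 76 and 139. Without the marked probe sets (5690 genes) 426 genes were lower at 24 h against 0 h, and 131 were higher and 145 lower at 24 h against 4 h. With a pseudocount of 100, 128 were higher at 24 h against 4 h. Scaling on hybridisation controls gave 545 higher and 122 lower at 4 h, 1896 and 318 at 24 h against 0 h, and 340 and 223 at 24 h against 4 h. No paired analysis was possible because each time has 1 array, and for the same reason no array could be left out.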
